A study of Saccharomyces cerevisiae with 21 samples.

Results

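The libraries described here show what the loss of *CUE2* does to ribosomes on a no-go decay reporter in yeast cells that already lack *SLH1*, *DOM34* and *SKI2*. Of the 15 monosome libraries of 8 strains, 4 belong to this comparison: 2 of *cue2Δ slh1Δ dom34Δ ski2Δ* and 2 of *slh1Δ dom34Δ ski2Δ*, called the control strain below. They were chosen by genotype, with earlier results of these data known. The deletions of *slh1*, *dom34* and *ski2* are thus shared by both strains, and only *cue2* differs by name. Each genotype is 1 yeast strain, and the study's strain list gives different drug-resistance cassettes for the *SLH1* disruption in the 2 strains. All cells carried NGD-CGA, a reporter that encodes GFP, a 2A peptide, a FLAG tag and His3 with 12 CGA codons, written (CGA)12, inside *HIS3*, and were moved to galactose medium to induce it.

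Cue2 is an endonuclease of no-go decay, the pathway that destroys mRNAs on which ribosomes stall and collide. Slh1 is a helicase of the ribosome quality control trigger complex, which takes collided ribosomes apart. Dom34 rescues ribosomes that have run to the broken 3′ end of an mRNA, and Ski2 helps the exosome degrade mRNA from its 3′ end. Cells without Dom34 and Ski2 therefore keep both the 5′ pieces of cut mRNAs and the ribosomes at their ends. Ribosome-protected fragments (RPFs) come in 3 sizes here. The 16 nt RPFs (15 to 17 nt) come from ribosomes at the 3′ end of a truncated mRNA and are placed by their 3′ ends. The 21 nt RPFs (20 to 22 nt) come from ribosomes with an empty A site, and the 28 nt RPFs (27 to 32 nt) from ribosomes with an occupied A site, both placed by the A site. CGA, an arginine codon that is decoded poorly in yeast, stalls ribosomes on the tract.

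The authors deposited each library in 1 of 2 tables, as reads at each nt of the reporter scaled to the depth of the library (rpm). Each strain has 1 library in each table. For *cue2Δ slh1Δ dom34Δ ski2Δ*, the first table holds replicate 3. The columns of the second table carry the number 3 as well but hold other values, while the sample of that table is titled replicate 4. They are therefore used as a second library of the strain without a number, and results are given with and without it. The depth was 1261876 reads in the first library of *cue2Δ slh1Δ dom34Δ ski2Δ*, 10686133 in the second, and 12634641 and 9698106 in the control strain. A count of 3 reads thus came to 2.38, 0.281, 0.237 and 0.309 rpm. The first *cue2Δ slh1Δ dom34Δ ski2Δ* library is the shallowest of all 15. Within the comparison it also stands apart in reading frame, since 55.3% of its 28 nt RPFs in the 300 nt upstream of the tract lay on the second nt of a codon, against 65.3 to 72.2% in the other 3 libraries. Outside the comparison, the first-table library of *hel2Δ slh1Δ dom34Δ ski2Δ* was similar, at 56.3%. The labels give 1 control library (second table) a fragment range of 40 to 80 nt, although its title carries no disome suffix, and it was used as a monosome library. The traces cover the reporter alone, so the deletion of *CUE2* itself was not checked. Nothing says whether the 2 libraries of a strain came from separate cultures, and p-values measure only the spread between these libraries.

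Position 0 is the start of CGA codon 2. The tract covers -3 to 32 and lies between residues 92 and 93 of His3. The 300 nt upstream of the tract and the tract, -303 to 32, are called the window. The sequences below are those of the deposited reporter, sense strand, and hold the 10 positions with the most 16 nt RPFs in the control strain, each within the codon in capitals. The first runs from -114 to -4 and encodes His3 residues 56 to 92, and the second runs from -183 to -154 and encodes residues 33 to 42.
near: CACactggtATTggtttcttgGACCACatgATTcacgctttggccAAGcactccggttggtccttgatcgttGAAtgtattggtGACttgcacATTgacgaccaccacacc
far: tccatcttcccagaaaagGAAgctgaagct
All 10 sites lay upstream of the tract and all 10 on the first nt of a codon. The codons encode isoleucine at 3 sites, histidine, glutamate and aspartate at 2 sites each, and lysine at 1. From -276, where its *HIS3* part begins, to the tract, the reporter encodes the same residues as the genomic *HIS3* gene (YOR202W, chromosome XV of R64, 721946 to 722608). All 91 of the 91 compared were equal, with 82.1% of 273 nt identical.

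Without *CUE2*, nearly all 16 nt RPFs upstream of the tract were lost. From -303 to -4, they came to 177 and 181 rpm in *cue2Δ slh1Δ dom34Δ ski2Δ*, against 4922 and 5087 rpm in the control strain. The groups did not overlap, and the control mean was 28.02 times the mean without *CUE2*. The log2 difference, on the scale of log2(rpm + 1), was -4.80, with -4.79 within the first table and -4.81 within the second. With the second *cue2Δ slh1Δ dom34Δ ski2Δ* library left out, it was -4.82. A two-sided exact permutation test cannot give a p below 0.333 with so few libraries (2 against 2, or 1 against 2). In the test of 2 against 2, this and the other sums below reached that p wherever the strains did not overlap. As a share of all RPFs of 16, 21 and 28 nt in the window, 16 nt RPFs were 3.74% (95% Wilson interval 3.38 to 4.14%) and 2.65% (2.54 to 2.75%) without *CUE2*, and 26.7% (26.5 to 26.9%) and 29.0% (28.8 to 29.3%) in the control strain. These intervals cover counting error only.

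The loss was not even along the mRNA. In bins of 30 nt counted upstream from the tract, the bin at -93 to -64 kept the smallest share of the control level, 1.56%, with 20.6 and 14.5 rpm without *CUE2* against 898 and 1359 rpm. The bin at -63 to -34 kept 1.73%, with 27.7 and 13.01 rpm against 959 and 1390 rpm. In the bin next to the tract, -33 to -4, 33.3 and 74.02 rpm remained of 1080.1 and 987 rpm, or 5.19%. In rpm, the 2 libraries without *CUE2* differed most from each other here and in the bin at -213 to -184, where they held 26.9 and 7.02 rpm against 165 and 195 rpm. Farther away, where the control strain itself had few 16 nt RPFs, more of its level remained: 24.1% at -243 to -214 and 45.6% at -303 to -274, where 5.55 and 4.49 rpm stood against 10.7 and 11.3 rpm. In all 10 bins both libraries without *CUE2* lay below both control libraries.

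**Figure D1:**
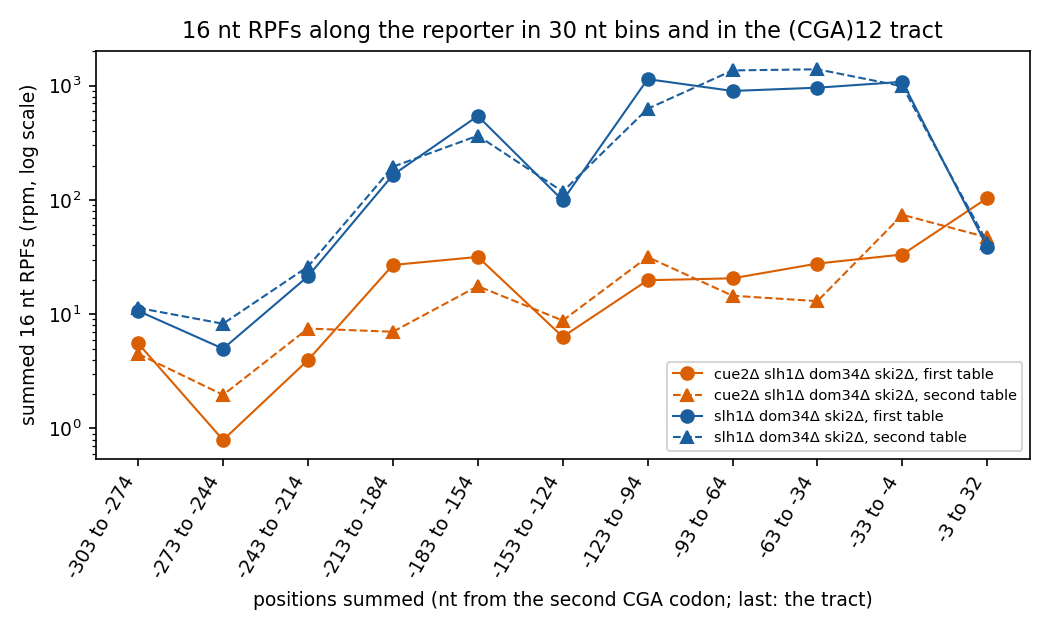
Summed 16 nt RPFs (rpm, log scale) in the 10 bins of 30 nt upstream of the (CGA)12 tract and in the tract itself, 1 line per library (orange, *cue2Δ slh1Δ dom34Δ ski2Δ*; blue, *slh1Δ dom34Δ ski2Δ*; circles, first table; triangles, second table). The blue lines lie above the orange ones in every bin, with the widest gap between -93 and -34, and only in the tract do both orange lines lie above the blue ones.

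At single sites, the highest 16 nt position of the control strain was -42 (GAA, glutamate 80 of His3), with 734 and 926 rpm. Without *CUE2* it held 0 rpm and 0.468 rpm, which is 0 and 5 reads against 9280 and 8983. At -21 (ATT, isoleucine 87), the control libraries held 683 and 678 rpm and the libraries without *CUE2* 3.96 and 14.9 rpm. This was the site with most rpm left among the 10, 72.2-fold below the control mean. At -69 (AAG, lysine 71), 255 and 786 rpm stood against 6.34 and 0.936 rpm. The control libraries differed most from each other here, and both were still far above the libraries without *CUE2*.
At -105 (ATT, isoleucine 59), the control libraries held 499.9 and 209 rpm and the others 0.792 and 4.59 rpm. At -165 (GAA, glutamate 39), the most distant of the sites, the values were 256 and 145 rpm against 5.55 and 6.83 rpm, the smallest difference of the 10 at 32.4-fold. The neighbouring codons at -93 (GAC, aspartate 63) and -90 (CAC, histidine 64) held 207 and 163 rpm, and 192 and 174 rpm, in the control strain. Without *CUE2*, -93 held 1.58 and 1.497 rpm and -90 held 0.792 and 3.93 rpm. The last 3 sites, -30 (GAC), -114 (CAC) and -84 (ATT), held between 98.9 and 202 rpm in the control libraries, were without a single read in the first library without *CUE2* and reached at most 3.56 rpm in the second.
No site of the 10 exceeded 14.9 rpm without *CUE2* or fell below 98.9 rpm in the control strain. Together the 10 sites made up 67.5% of all 16 nt RPFs in the window in both control libraries (95% Wilson intervals 67.1 to 67.9% for each), but only 6.78% (4.598 to 9.89%) and 17.4% (15.9 to 18.9%) without *CUE2*. These sites were chosen for their control level, so their fall is a description and was tested only in the fit over all codons.

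**Figure D2:**
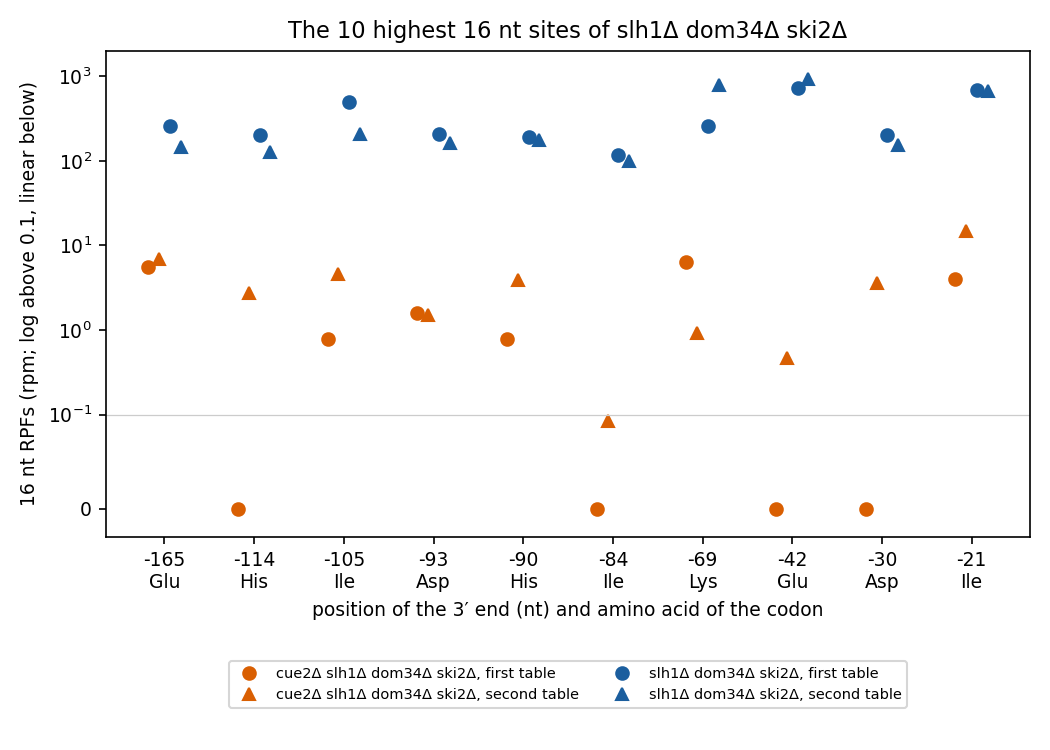
The 16 nt RPFs (rpm, log scale above 0.1 rpm and linear below) at the 10 highest sites of the control strain, 1 point per library, with the position and the amino acid of the codon. All blue points (control strain) lie at or above 98.9 rpm and all orange points (*cue2Δ slh1Δ dom34Δ ski2Δ*) at or below 14.9 rpm, 4 of them at 0.

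The fit over codons compared log2(rpm + 0.1) in windows of 3 nt in the reading frame, over the whole reporter and with all 15 libraries sharing the estimate of the spread (limma, Benjamini-Hochberg adjustment, threshold 0.05). Of 130 codon windows with at least 0.5 rpm of 16 nt RPFs on average, 70 (53.8%) were lower without *CUE2* and 1 (0.769%) was higher. That average ran over all 15 libraries, so a high control level helped windows to pass. At -249, for example, the control strain held 1.50 and 5.57 rpm and the strain without *CUE2* 0 and 0 rpm. The counts and medians therefore describe windows admitted in part by the control level. The other fits by codon used the same rule. The median log2 difference over all 130 was -2.65. Between -243 and -34, 43 of 49 windows fell, with a median of -4.53 over the 49, and between -33 and -4, 5 of 8 fell, with a median of -2.73. The largest falls were at -42 (-9.54 on the log2 scale, standard error 0.86, limma, adjusted p = 1.65e-07) and at -177, where 106 and 63.002 rpm stood against 0 and 0.561 rpm (-8.31, standard error 1.02, limma, adjusted p = 4.44e-06). Next came the windows at -210 (-7.60), -105 (-7.27) and -153 (-7.10), with limma adjusted p from 4.44e-06 to 4.65e-05. Where the libraries without *CUE2* held few reads, the size of the log2 difference depends on the pseudocount: at -42 it was -8.66 with 1 rpm.
Upstream of the window, from -1113 to -304, 20 of 54 tested windows also fell, with a median of -2.04 over the 54. The summed 16 nt RPFs there were 82.4 and 49.5 rpm without *CUE2* and 198 and 199.9 rpm in the control strain, a log2 difference of -1.62 (-1.25 within the first table and -1.99 within the second). This stretch precedes the *HIS3* part of the reporter, so windows that fell with *CUE2* reached into the region before *HIS3*, at a lower level. The largest fall there was near the window, at -381, with 13.6 and 13.9 rpm in the control strain against 0 and 0.0936 rpm. The called window farthest upstream, -903, held 0.950 and 1.34 rpm against 0 and 0.187 rpm. All 4 values were below the 2.38 rpm of 3 reads in the first library without *CUE2*, and edgeR did not call it (edgeR, adjusted p = 0.0688). Nor did edgeR call the windows at -837, -834, -603, -450, -366 and -306. Many of the 54 windows held 0 rpm in that first library, where the log2 difference depends on the method. At -909, for example, it was -1.58 by limma and -0.38 by edgeR. Leaving out the second *cue2Δ slh1Δ dom34Δ ski2Δ* library gave 77 called windows, 74 of them lower, and 66 of the 77 were among the 71 of all libraries.

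What was left of the 16 nt RPFs without *CUE2* was distributed in another way. In the tract, 16 nt RPFs came to 104 and 47.0 rpm without *CUE2* and to 38.6 and 42.3 rpm in the control strain. The log2 difference was 0.78, but 1.40 within the first table and 0.15 within the second, so the excess came mostly from the shallow first library. The tract held 37.0% (95% Wilson interval 32.1 to 42.1%) and 20.6% (19.1 to 22.3%) of all 16 nt RPFs in the window, against 0.779% (0.713 to 0.850%) and 0.824% (0.748 to 0.907%). Of the 5 highest 16 nt positions without *CUE2*, 3 lay on the second nt of CGA codons: 7, with 22.98 and 15.2 rpm, 4, with 17.4 and 6.46 rpm, and 10, with 8.72 and 8.52 rpm. The control libraries held 15.8 and 11.8 rpm at 7, 6.41 and 6.19 rpm at 4, and 6.02 and 7.11 rpm at 10. The other positions of the 5 were -21 and -24 (CAC, histidine 86), the latter with 1.58 and 14.97 rpm against 48.2 and 34.2 rpm.
The 1 window that was higher, at 0 to 2, held 14.3 and 2.43 rpm without *CUE2* and 1.11 and 1.34 rpm in the control strain (log2 difference 2.19, standard error 0.91, limma, adjusted p = 0.0475). It rested on the first library: without it, the log2 difference was 0.94 (limma, adjusted p = 0.422). It also missed the threshold without either control library (limma, adjusted p = 0.171 and 0.129). A 16 nt read is unique in the tract up to position 11 and repeats beyond it, where at most 0.792 rpm was placed at any position of a library.
The reading frame of the remainder differed as well. Upstream of the tract, 90.9% (95% Wilson interval 90.6 to 91.1%) and 92.1% (91.8 to 92.3%) of the control strain's 16 nt RPFs ended on the first nt of a codon. Without *CUE2* the shares were 43.9% (37.6 to 50.5%) and 56.1% (53.9 to 58.3%), from 223 and 1929 reads. The first of these libraries also stood apart from the second and from the control libraries in the frame of its 28 nt RPFs. Low shares were not particular to this strain. They were 47.5 and 64.5% in *hel2Δ slh1Δ dom34Δ ski2Δ*, 57.9 and 62.0% in *slh1Δ ski2Δ*, and 61.5 and 63.1% in *cue2Δ dom34Δ ski2Δ*. In *dom34Δ ski2Δ* the shares were 87.6 and 91.8%.

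The 28 nt RPFs were lower too, but by less and only over part of the window. From -303 to 32 they came to 5529 and 6450 rpm without *CUE2* and 11403 and 10553 rpm in the control strain, a log2 difference of -0.88 (-1.04 within the first table, -0.71 within the second, and -0.99 without the second library). The difference lay between -243 and -34, a stretch chosen with the values of the bins known, so its sum describes them and tests nothing. In these 7 bins, 28 nt RPFs were 3756 and 4367 rpm against 10262 and 9355 rpm, 41.4% of the control level, and in each of the 7 both libraries without *CUE2* lay below both control libraries. The bin at -153 to -124 kept least, 24.1%, with 223 and 364 rpm against 1430.4 and 1001 rpm. At -213 to -184, 253 and 342 rpm stood against 1152 and 982 rpm (27.9%). At -93 to -64, where the control strain had among its most 28 nt RPFs with 2276 and 2384 rpm, 823 and 791 rpm remained (34.6%).
Next to the tract the direction was opposite. At -33 to -4, 28 nt RPFs were 1411 and 1658 rpm without *CUE2* and 840.3 and 979 rpm in the control strain, a log2 difference of 0.75 (0.75 and 0.76 within the tables, 0.64 without the second library). The stretch at -30 to -19, which is 30 nt behind CGA codons 2 to 5 and is where the ribosome next in the queue would be placed, had 710.1 and 844 rpm against 533 and 559 rpm, a log2 difference of 0.50. The bin at -33 to -4 held 26.8% (95% Wilson interval 25.7 to 27.8%) and 26.9% (26.6 to 27.3%) of the 28 nt RPFs upstream of the tract without *CUE2*, and 7.50% (7.36 to 7.64%) and 9.40% (9.22 to 9.58%) in the control strain. From -303 to -244, the strains overlapped, with 104 and 131 rpm without *CUE2* and 105 and 79.7 rpm in the control strain.

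**Figure D3:**
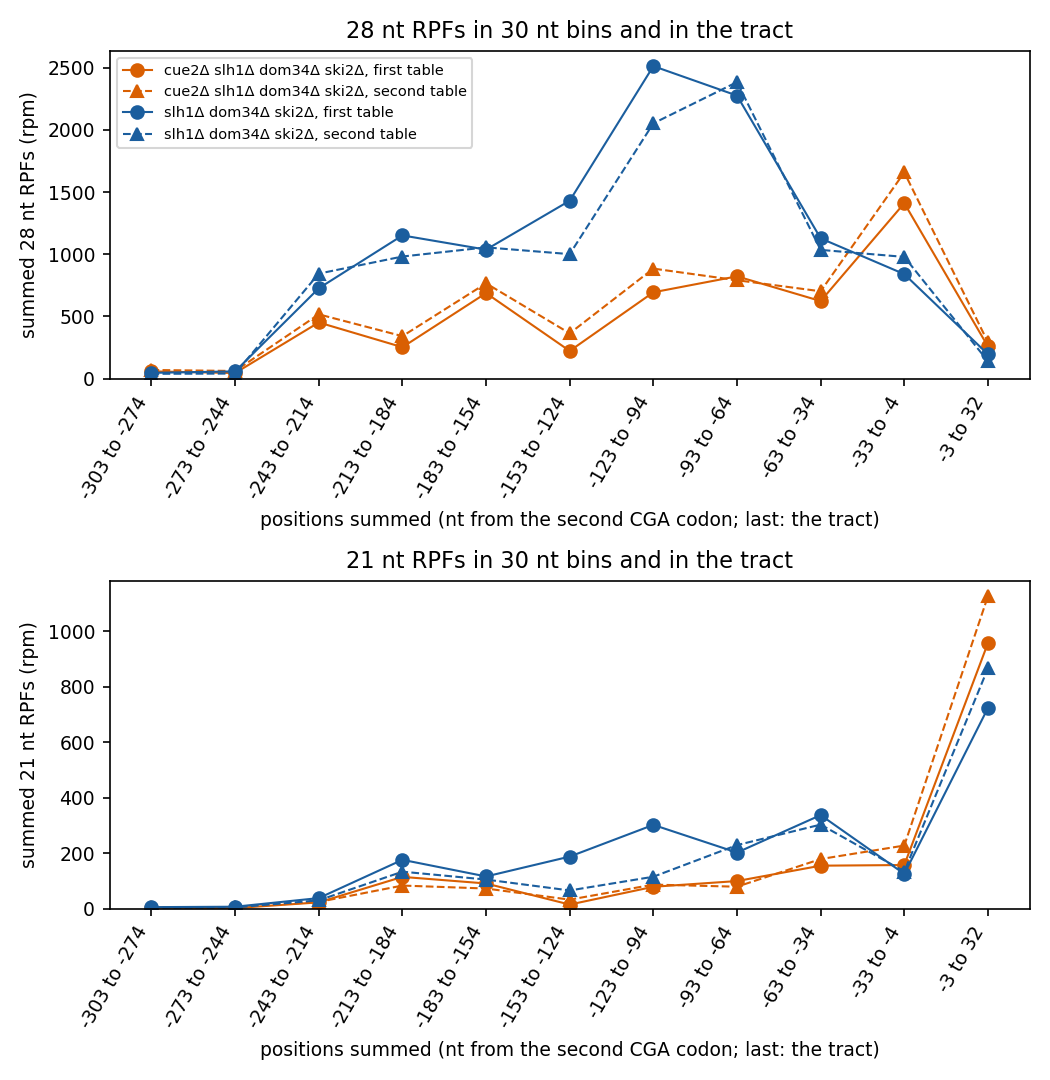
Summed 28 nt RPFs (above) and 21 nt RPFs (below), in rpm on linear axes, in the 10 bins of 30 nt and in the tract, with lines and symbols as in the plot of 16 nt RPFs by bin. The 28 nt RPFs of the control strain (blue) peak between -123 and -64 and those of *cue2Δ slh1Δ dom34Δ ski2Δ* (orange) next to the tract, at 1411 and 1658 rpm, where they exceed the blue lines.

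By codon, 9 of 453 windows (1.99%) of 28 nt RPFs were lower without *CUE2* and 0 (0%) were higher (limma, Benjamini-Hochberg adjustment). All 9 lay between -243 and -34, the stretch chosen above, which holds 70 of the 453 tested windows. At an unadjusted p under 0.05, limma had 44 lower and 26 higher windows, and edgeR called 8 lower and 0 higher. The largest falls were adjacent: the window at -75 had 23.8 and 29.4 rpm against 521 and 404 rpm (log2 difference -4.11, standard error 0.52, limma, adjusted p = 9.91e-05), and the window at -72 (GCC, alanine 70) had 92.7 and 88.4 rpm against 1288 and 1410 rpm (-3.89, standard error 0.47, limma, adjusted p = 9.91e-05). The window at -72 held the highest 28 nt RPFs of the control strain, with 683 and 877 rpm at -71 and 536 and 504 rpm at -70 alone. At -129, 33.3 and 45.4 rpm stood against 529 and 298 rpm (-3.35, limma, adjusted p = 0.000113). The windows at -207 (-2.67) and -198 (-2.57) completed the 5 largest.
Next to the tract, at -33 to -4, all 10 windows lay above 0 in log2 difference, with a median of 0.88, but none passed the threshold. The median over all 453 windows was 0.19. At -20 (ATT, isoleucine 87), the highest 28 nt position of this stretch, 234 and 301 rpm stood against 197 and 219 rpm. At -104, 101 and 212 rpm stood against 514 and 381 rpm, and at -128, 27.7 and 41.5 rpm against 493 and 276 rpm.
Calls of single 28 nt windows depended on the libraries. Without the second *cue2Δ slh1Δ dom34Δ ski2Δ* library, limma called 58 windows, 57 lower and 1 higher, the 9 included, with the spread of the lone shallow library taken from the other strains. Without the first library, or without either control library, it called 4, all among the 9.

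**Figure D4:**
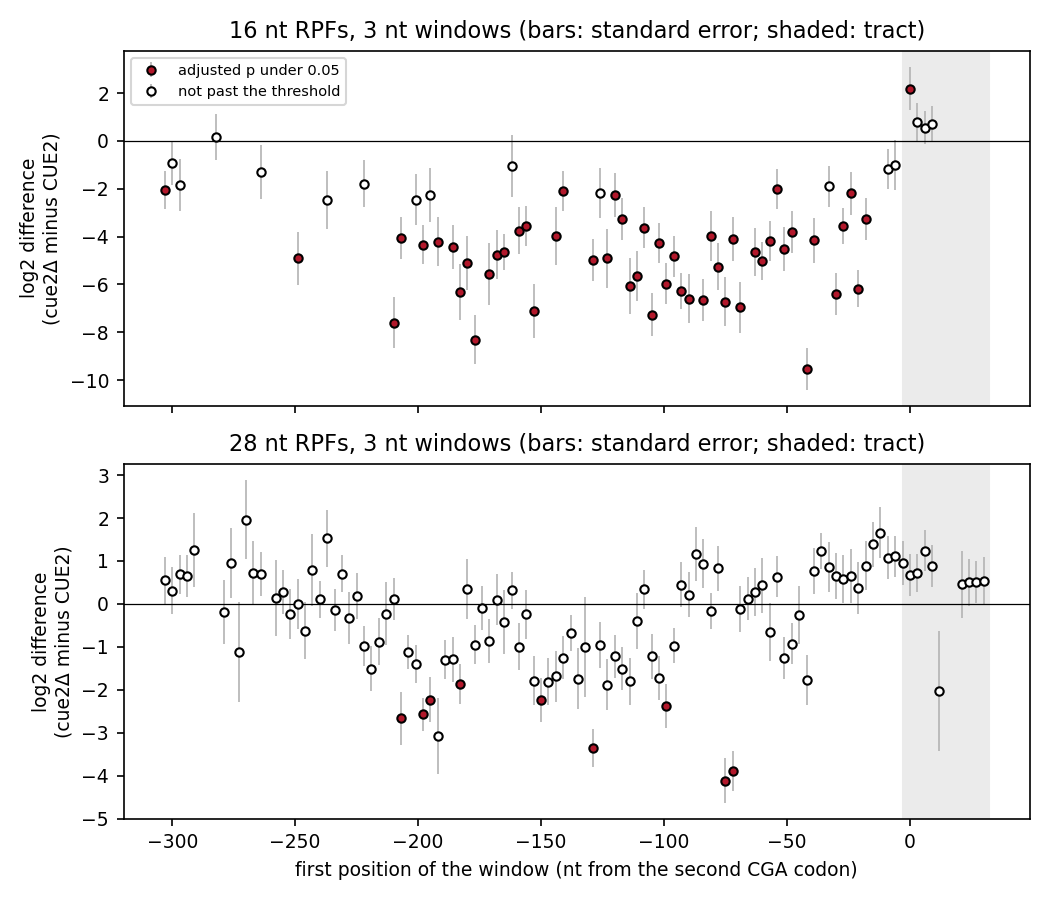
Log2 difference (*cue2Δ slh1Δ dom34Δ ski2Δ* minus *slh1Δ dom34Δ ski2Δ*) in each tested 3 nt window from -303 to 32, for 16 nt RPFs (above) and 28 nt RPFs (below), with bars of 1 standard error, filled points where the limma adjusted p was under 0.05, and the tract shaded. The 16 nt windows lie below 0 over most of the stretch up to the tract, the 9 filled 28 nt windows lie between -243 and -34, and the 28 nt windows next to the tract lie above 0.

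The ribosomes behind the lost 16 nt sites were compared by distance. The codon 30 nt upstream of each of the 10 highest 16 nt sites held 28 nt RPFs in the control strain, and at 9 of these 10 codons both control libraries exceeded both libraries without *CUE2*. The same held at 40 (40.0%) of all 100 codons upstream of the tract within the window and at 38 (54.3%) of the 70 codons from -243 to -34, where all 10 lie. The median fold was 3.46 over the 10 codons, against 1.12 over the 100 and 1.83 over the 70. For 21 nt RPFs at the codon 21 nt upstream, both control libraries were higher at 5 of 10 codons and at 35 (50.0%) of the 70, with median folds of 2.07 and 1.84. The pair at -42 and -72 stood out. At -69, the codon 30 nt behind (-99) had 59.4 and 95.4 rpm of 28 nt RPFs against 480.1 and 320 rpm. At -84, the codon behind (-114) had 99.1 and 114 rpm against 441 and 311 rpm. The exception was -30, where the codon behind (-60) had 63.4 and 57.8 rpm without *CUE2* and 48.3 and 41.3 rpm in the control strain.
Across the 100 codons, which are neighbours on 1 mRNA and not independent, the fall in 28 nt RPFs at a codon had its highest Pearson correlation with the fall in 16 nt RPFs 30 nt downstream (r = 0.60, rho = 0.42). For 21 nt RPFs it was highest at 21 nt (r = 0.62, rho = 0.41). By Pearson correlation both distances ranked first within each table as well. The 28 nt value rested on the single pair at -42 and -72, since r was 0.24 without it. With the largest losses left out, r was highest at 54 nt (0.38), and 30 nt had rank 5, also within each table. The rank correlation of 28 nt RPFs was higher at 21 nt, 0.53, than at 30 nt. For 21 nt RPFs, r without the largest pair (-42 and -63) was 0.36, and within the first table it was then 0.24, below the 0.43 at 24 nt. Their rank correlation was higher at 24 nt (0.47) and 15 nt (0.46) than at 21 nt.

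The 21 nt RPFs of the stalled ribosome were kept. On CGA codons 2 to 5 (0 to 11), they came to 727 and 827 rpm without *CUE2* and 516 and 583 rpm in the control strain. Both libraries without *CUE2* were higher, by 1.42 times in the means, a log2 difference of 0.50 (0.50 and 0.50 within the tables, 0.41 without the second library). Per reporter, a scaling that takes the summed 21 and 28 nt RPFs from -1113 to -304 as the measure of translated reporter, the difference was 0.23, with 0.16 and 0.30 within the tables. The highest position was 4, the second nt of CGA codon 3, with 183 and 219 rpm against 145 and 180.2 rpm. Position 1 held 107 and 191 rpm against 74.8 and 109 rpm, position 7 held 88.8 and 114 rpm against 66.01 and 79.2 rpm, and position 10 held 147 and 132 rpm against 87.5 and 113 rpm. The share of 21 nt RPFs among both sizes on these codons was 89.1 and 91.2% without *CUE2* and 90.7 and 94.0% in the control strain, so the make-up of the stalled ribosomes overlapped between the strains.
At position 13, the first *cue2Δ slh1Δ dom34Δ ski2Δ* library held 0.792 rpm, and the other 3 libraries held 139, 95.4 and 137 rpm. At 31, at the end of the tract, the values were 102.2 and 102.2 rpm without *CUE2* and 90.1 and 117 rpm in the control strain. A 21 nt read repeats within the tract at positions 14 to 29, where the 4 libraries held no RPFs of this size apart from 0.792 rpm at 27 and 20.6 rpm at 29 in the first *cue2Δ slh1Δ dom34Δ ski2Δ* library, the one with few at 13.
Upstream of the tract, 21 nt RPFs were lower over the same stretch as 28 nt RPFs. From -243 to -34 they came to 573 and 554 rpm against 1357 and 978 rpm, 48.3% of the control level, and at -93 to -64 they were 99.1 and 78.7 rpm against 202 and 229 rpm. Over the whole window they were 1692 and 1917 rpm against 2217 and 1984 rpm, a log2 difference of -0.22. By codon, 4 of 325 windows (1.23%) were lower and 0 (0%) higher (limma, with 33 lower and 7 higher at an unadjusted p under 0.05, and 8 lower and 1 higher by edgeR). The window higher by edgeR was 27 to 29, which rested on the reads at 27 and 29 in the shallow first library against 0 in the other 3. The 4 were -63, with 7.92 and 18.7 rpm against 167 and 107 rpm (log2 difference -3.45, standard error 0.55, limma, adjusted p = 0.00103), -123 (-4.10), -72 (-2.60) and -69 (-2.43). The codon at -63 lies 21 nt behind the 16 nt site at -42. Without the first library without *CUE2*, limma called 0 windows (14 at an unadjusted p under 0.05), without the second 41, and without the first or second control library 3 and 1.
Over both sizes, RPFs of 21 and 28 nt in the window were 7221 and 8368 rpm without *CUE2* and 13620 and 12537 rpm in the control strain, a log2 difference of -0.75 (-0.92 and -0.58 within the tables, -0.86 without the second library). The share of 21 nt RPFs among them was higher without *CUE2*, 23.4% (95% Wilson interval 22.6 to 24.3%) and 22.9% (22.6 to 23.2%) against 16.3% (16.1 to 16.5%) and 15.8% (15.6 to 16.03%).

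The 21 and 28 nt RPFs were higher on both sides of the window without *CUE2*. From -1113 to -304 they were 2170 and 2293 rpm against 1715 and 1996 rpm, a log2 difference of 0.27. Scaling per reporter sets this difference to 0 and lowers the others by about as much. Downstream of the tract, from 33 to the stop codon, they were 376 and 391 rpm against 238 and 256 rpm, a log2 difference of 0.63 (0.66 and 0.61 within the tables, 0.61 without the second library), and 0.37 per reporter. Both sizes were higher there: 28 nt RPFs were 248 and 265 rpm against 175 and 168 rpm, and 21 nt RPFs 128 and 126 rpm against 62.9 and 88.1 rpm. The 16 nt RPFs downstream of the tract did not share this, with 25.4 and 31.6 rpm without *CUE2* and 35.3 and 32.9 rpm in the control strain. Whether more reporter mRNA or more ribosomes per mRNA was present cannot be told apart in these libraries.

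Among the 8 strains, the control strain had the most 16 nt RPFs in the window, 4961 and 5130 rpm, followed by *dom34Δ ski2Δ*, with 595 and 596 rpm. With 281 and 227 rpm, *cue2Δ slh1Δ dom34Δ ski2Δ* lay below *dom34Δ ski2Δ*. Its range overlapped that of *slh1Δ ski2Δ* (288 and 103 rpm), which keeps *DOM34*, and was just below that of *hel2Δ slh1Δ dom34Δ ski2Δ* (321 and 289 rpm), which lacks Hel2, the ubiquitin ligase that recognises collided ribosomes. In *cue2Δ dom34Δ ski2Δ* there were 184 and 107 rpm, below both libraries of the strain that lacks *SLH1* as well. For 28 nt RPFs, *cue2Δ slh1Δ dom34Δ ski2Δ* was above *cue2Δ dom34Δ ski2Δ* (2778 and 4403 rpm), and downstream of the tract its 376 and 391 rpm of 21 and 28 nt RPFs compared with 68.1 and 65.1 rpm there.
Whether the loss of 16 nt RPFs with *CUE2* differed between cells without and with *SLH1* was tested by codon as an interaction in the same fit. Of 130 windows, 15 (11.5%) had a larger log2 fall in cells without *SLH1* and 0 (0%) a smaller one (limma, Benjamini-Hochberg adjustment, with 44 and 1 at an unadjusted p under 0.05). The windows were admitted in part by the level of the control strain. At some of the 15, *dom34Δ ski2Δ* had little to lose, such as 0.248 and 0.110 rpm at -249 and 0.413 and 0.440 rpm at -351. At others it held more, such as 25.3 and 21.3 rpm at -21. The interaction was largest at -153, where the control strain had 24.4 and 43.6 rpm and *dom34Δ ski2Δ* 0.0826 and 0.330 rpm, followed by -177, -183, -75 and -42. At -42, *dom34Δ ski2Δ* held 24.2 and 29.8 rpm and *cue2Δ dom34Δ ski2Δ* 0.714 and 3.66 rpm (interaction -5.59 on the log2 scale, standard error 1.22, limma, adjusted p = 0.0235). This count depended on single libraries: limma called 40 windows without the second *cue2Δ slh1Δ dom34Δ ski2Δ* library and 3 without the first, 3 and 9 without the first or second *cue2Δ dom34Δ ski2Δ* library, and 0 without any 1 library of *dom34Δ ski2Δ* or *slh1Δ dom34Δ ski2Δ*, with 28 to 37 at an unadjusted p under 0.05. For 28 nt RPFs, where the test was added after the data were seen, 0 of 453 windows (0%) passed in either direction (limma, 23 at an unadjusted p under 0.05), while 33 passed without the second *cue2Δ slh1Δ dom34Δ ski2Δ* library and 1 without the second *cue2Δ dom34Δ ski2Δ* library.

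**Figure D5:**
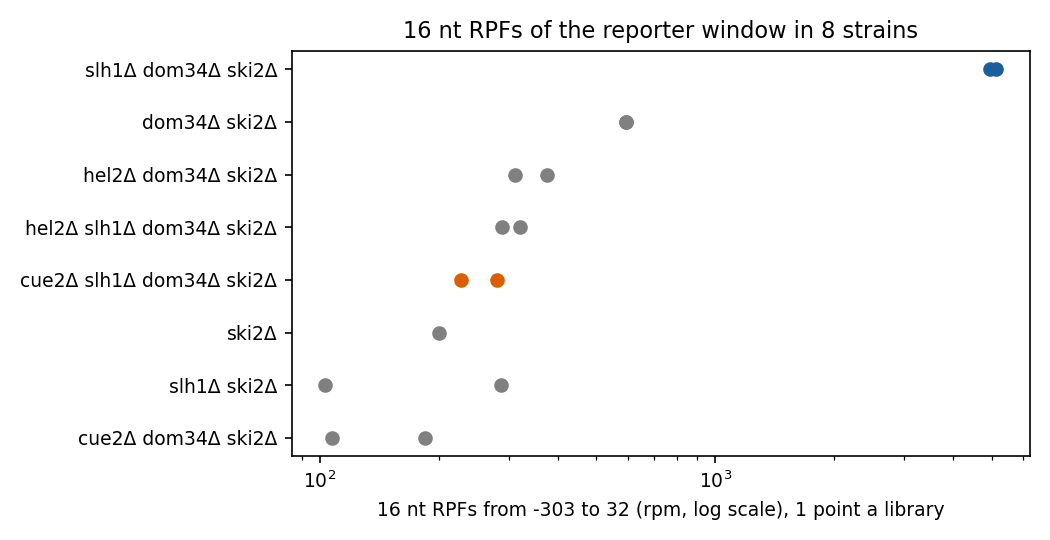
Summed 16 nt RPFs from -303 to 32 (rpm, log scale) in the 8 strains, 1 point per library, ordered by the mean. The libraries of *cue2Δ slh1Δ dom34Δ ski2Δ* (orange, 281 and 227 rpm) lie among the strains with few 16 nt RPFs and those of *slh1Δ dom34Δ ski2Δ* (blue) alone at the right.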

How the data were processed

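The authors pelleted polysomes, digested them with RNase I, kept reads with 1 match to R64-1-1 or the reporter (STAR, with CASAVA 1.8 per the labels), and deposited reads at each nt as RPM. Divided by the rpm of 1 read, 100% of the deposited values came out whole (tolerance 0.1 reads), which recovered reads and depth. Of the value columns, 45 were used and 12 (disome and in vitro libraries, 3 of them matching no sample) were not. Sums were compared as log2(rpm + 1) by two-sided exact permutation tests, and 3 nt windows averaging 0.5 rpm or more as log2(rpm + 0.1) with limma 3.58.1 (trend, R 4.3.3), with edgeR 4.0.16 on recovered reads (quasi-likelihood) as an alternative, which called 63 16 nt, 9 21 nt and 8 28 nt windows. Functions were tested on simulated reads. Positions named are the 10 highest 16 nt positions of *slh1Δ dom34Δ ski2Δ*, the 5 highest 16 nt positions of *cue2Δ slh1Δ dom34Δ ski2Δ*, the 5 highest 21 nt and 28 nt positions of both, CGA codons 2 to 5, and the 5 windows with the largest called difference in each direction. Codons behind 16 nt sites and shifts were chosen after seeing the data. The members, regions and lists were chosen with earlier results of these data known. Alternatives were another pseudocount, no filter, only the 2 strains, values per reporter, the deposited table as a replicate block and leaving out each library.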

Additional observations from a re-analysis of the deposited data

Results flagged for a closer look

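The fall in 16 nt RPFs with loss of *CUE2* was compared between cells without and with *SLH1* by the test of the difference itself. It differed in 15 (11.5%) of 130 codon windows (limma, Benjamini-Hochberg adjustment). This count depended on single libraries, and the windows were admitted in part by the level of the control strain, as described above. The 5 largest log2 values of that difference, the change without *SLH1* minus the change with it, were -6.60 at -153, -6.18 at -177, -5.75 at -183, -5.65 at -75 and -5.59 at -42. At -153, -177 and -183 the 2 libraries of *dom34Δ ski2Δ* held at most 3.06 rpm, and the part of this low level in the difference was not tested.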

How the results depend on the processing

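All 6 sums kept their direction under each alternative run, and no exact test of 2 against 2 libraries could pass 0.05. The deposited table as a replicate block leaves the sums unchanged by arithmetic, at -4.31 for 16 nt RPFs of the window and -0.75 for 21 and 28 nt RPFs, with an exact paired p of 0.5, and gave 72, 5, 9 and 15 windows for 16, 21 and 28 nt RPFs and the interaction, changing no count by over 1.5 times. The labels do not pair the libraries, and same-table deviations had r of -0.17, -0.13 and 0.04. Crossed pairs, added after the data were seen, gave 72, 5 and 6 windows. For 21 nt windows, where 4 were called, the count was 10 with a pseudocount of 1 rpm, 1 with only the 2 strains, 9 by edgeR and 7 per reporter, and for 28 nt windows, where 9 were called, it was 30 per reporter. The cause was not tested. Leaving out 1 library gave 50 to 77 windows of 16 nt RPFs, 0 to 41 of 21 nt, 4 to 58 of 28 nt, 0 to 40 of the 16 nt interaction and 0 to 33 of the 28 nt interaction. The highest counts came without the second *cue2Δ slh1Δ dom34Δ ski2Δ* library, which leaves 1 shallow library assumed to vary like the other groups. Of single windows and settings, 163 kept their call and 47 lost it, with no direction turned.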
